A study of Mus musculus with 28 samples.

Results

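Trp53, the gene that encodes the tumour suppressor p53, and 9 genes that p53 is known to activate directly (Mdm2, Ccng1, Cdkn1a, Btg2, Bax, Bbc3, Pmaip1, Phlda3 and Trp53inp1) were followed in nascent RNA. The genes were chosen by name as members of the pathway, with earlier results of these data known, and all 10 were found among the 24984 genes listed. At 10 min of recovery from a transcription block, 9 of the 10 genes in WT cells were above steady state, relative to all reads. The rises ran from 1.51-fold (Bax) to 3.75-fold (Trp53inp1), where 36% of all genes tested were called higher. Set against the median of their length class, 4 genes (Trp53inp1, Mdm2, Phlda3 and Btg2) lay above and Bbc3 below, where 28.7% of all genes were called higher and 28.3% lower on that measure. Btg2 and Mdm2 lie near a class edge. At 5 min 2 genes were called higher and 2 lower in WT against the library total, beside 17.7% and 54.5% of all genes. With each library centred on its median 8 were called, all higher, beside 34.8% of genes higher and 33.5% lower. Of the 10, Cdkn1a differed most between genotypes, at 5 min, by a margin that did not pass the test within the 4 libraries of that time.

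Bru-seq reads only newly made RNA: bromouridine (BrU) fed to the cells is built into transcripts, which are then immunopurified and sequenced. The cells were mouse embryonic stem cells (mESCs), either wild type (WT) or lacking Elongin A (EloA null), a Pol II elongation factor and a subunit of a ubiquitin ligase, grown with serum, LIF and 2 kinase inhibitors on mouse embryonic fibroblast (MEF) feeders and depleted of them before labelling. The steady-state groups took up 2 mM BrU for 10 min with no drug. The recovery groups were held for 60 min in 1 µM flavopiridol (FP), an inhibitor of the kinase that releases paused Pol II, and were given 2 mM BrU for 5 min or for 10 min once the drug had been washed out. Each of the 6 groups had 2 libraries, 12 in all, and duplicates are described as independent experiments. No hold of 60 min without drug is described for the steady-state libraries, and the 5-min libraries had the shorter labelling. Drug, time and labelling time therefore cannot be told apart there. Whether the EloA null line is 1 clone is not given in the sources used here, and a difference between the lines cannot be told apart from a difference between clones.

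p53 is a transcription factor that binds DNA as a tetramer at paired decamers and activates genes of cell-cycle arrest, cell death, repair and metabolism. It is kept low by Mdm2, a ubiquitin ligase whose own gene p53 activates, so the pathway holds a feedback loop. p53 is abundant in mouse embryonic stem cells, and the protein is known to be stabilised when transcription is blocked. The protein was not measured here.

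The places where p53 could bind were read from the RefSeq GRCm38.p6 genome around each gene's start, because the genes share a regulator and several moved together. The p53 consensus was searched as a pair of decamers, each with 3 purines, a C, 2 bases that are A or T, a G and 3 pyrimidines, with 0 or 1 base between them, at most 2 mismatches in all and the C and G of the core kept in both. The consensus is its own reverse complement, so both strands were covered, within 3 kb on either side of the start. Such a match was present for 5 of the 10 genes, or 50%, beside 13.7% of 26180 annotated genes, 15.3% of 11759 expressed genes and 35% of 40 other known p53 targets. Matches are given 5′ to 3′ on the strand of the gene, with the core of each decamer (C, 2 bases, G) in capitals, and positions are those of the middle of the match in bases from the start, negative before it. The start is that of the curated RefSeq transcript reaching farthest 5′, which for Trp53, Ccng1, Bax and Bbc3 lies inside the gene span given further on.
Cdkn1a, chr17:29090928-29090947, plus strand, at -42 from the start, 1 mismatch: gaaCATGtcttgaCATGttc
Trp53inp1, chr4:11155112-11155132, plus strand, at -1319 from the start, 0 mismatches: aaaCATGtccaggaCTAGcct
Ccng1, chr11:40755462-40755481, minus strand, at -186 from the start, 1 mismatch: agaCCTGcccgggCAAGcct
Ccng1, chr11:40754936-40754955, minus strand, intron, at 340 from the start, 1 mismatch: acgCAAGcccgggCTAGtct
Bax, chr7:45467079-45467099, minus strand, at -191 from the start, 2 mismatches: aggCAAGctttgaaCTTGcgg
Bax, chr7:45466574-45466593, minus strand, intron, at 314 from the start, 2 mismatches: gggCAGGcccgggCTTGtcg

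Pmaip1 held a match with 2 mismatches, at -164 from its start. For Trp53, Mdm2, Btg2, Bbc3 and Phlda3 no match was found, which says only that these letters are not in this window. A match is a description of sequence, and binding was not measured. Trp53inp1, the gene with the largest rise at 10 min, holds the match with 0 mismatches, while for Mdm2 and Phlda3, the next in size, none was found in this window.

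The genes lie apart from one another and overlap no other RefSeq gene. In GRCm38, Trp53 spans chr11:69580348-69591873 on the plus strand, Mdm2 chr10:117688875-117710758 on the minus strand, Ccng1 chr11:40748552-40755309 on the minus strand and Cdkn1a chr17:29090979-29100722 on the plus strand. Btg2 spans chr1:134074865-134079155 on the minus strand, Bax chr7:45461695-45466903 on the minus strand and Bbc3 chr7:16308398-16318334 on the plus strand. Phlda3 spans chr1:135766085-135769134 and Trp53inp1 chr4:11156441-11174379, both on the plus strand. The 10 genes range in span from 3.05 kb (Phlda3) to 21.9 kb (Mdm2).

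Library sizes, worked out from the steps between low RPKM values, lay between 9857522 and 28547347 counted reads. The 4 libraries of 5-min recovery were the smallest, with at most 17272745. Eloa, the targeted gene, had a higher level in the libraries labelled EloA null than in WT in every condition (1.96 and 1.89 against 1.18 and 1.16 RPKM in steady state). The values count reads in introns, and which part of Eloa these cells lack is not given in the sources used here, so the gene cannot check the labels, and the libraries are called labelled EloA null, or null-labelled. The title of the first steady-state EloA null library is at odds with its genotype label, which reads wild type. Counts of calls and the called changes of the 10 genes that rest on it are given with and without it. Changes that were not called, medians and results under other alternatives are in part given only with it. The summed level of 12 fibroblast markers of the feeders was 1.23 to 3.37 RPKM per library and that of 12 embryonic stem cell markers 206 to 369 RPKM, and all 12 of the latter were above 0.5 RPKM in every group. Of the fibroblast markers, 1 or 2 passed 0.5 RPKM in a group, Col1a1 was the highest at 1.23 RPKM (WT, 10-min recovery), and in the recovery groups Thy1, Dcn, Lum or S100a4 were at 0 in both libraries. In bulk RNA, fewer cells of a type and less RNA per cell cannot be told apart.

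In steady state the 10 genes fell into a high and a low set. Levels are RPKM, reads per kilobase of summed intron scaled to the reads of the library, which can be compared between genes. In WT cells Mdm2 (11.4 ± 1.16 RPKM, SD, n = 2 here and below), Ccng1 (11.3 ± 1.8), Trp53inp1 (10.7 ± 1.49), Phlda3 (10.5 ± 1.86) and Trp53 (9.4 ± 0.035) led, and these neighbours did not differ beyond their spread. Each of the 5 was above at least 94.5% of the expressed genes of those libraries. Bax followed with 7.64 ± 0.379, Btg2 with 5.36 ± 0.0478 and Cdkn1a with 3.58 ± 0.24 RPKM. The death genes Pmaip1 (0.887 ± 0.0657) and Bbc3 (0.857 ± 0.0178) were lowest, did not differ from each other beyond their spread, and lay just above the limit of 0.5 RPKM used to call a gene expressed. The order was nearly the same in the null-labelled libraries, with Phlda3 first and Pmaip1 last.

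**Figure D1:**
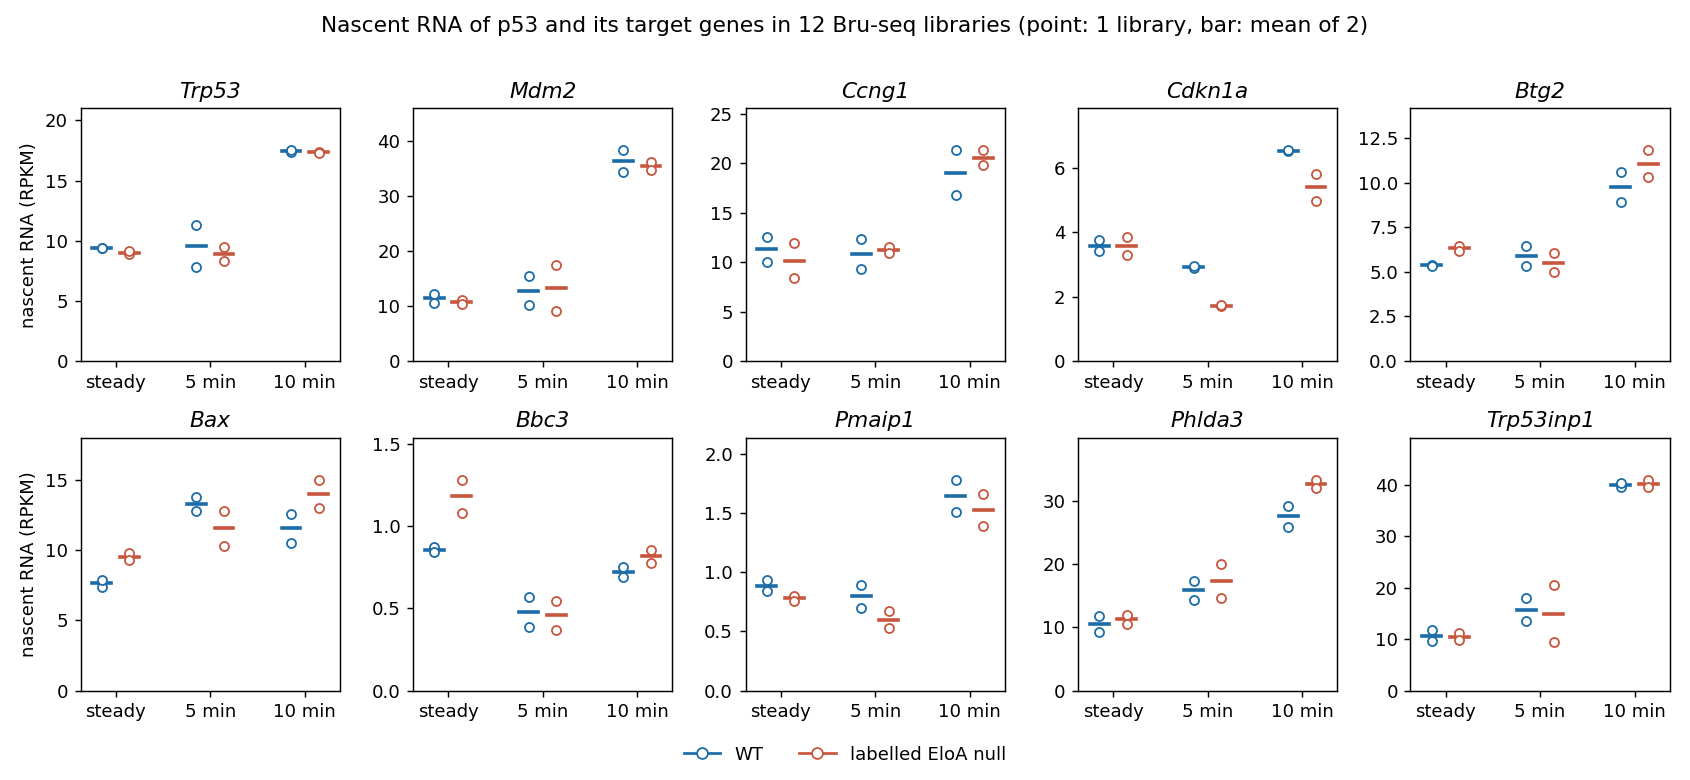
Nascent RNA of the 10 genes (y axis, RPKM, starting at 0 and scaled per gene) in steady state and at 5 and 10 min of recovery; a point is 1 library and a bar the mean of 2, in blue for WT and in red for the null-labelled libraries. For every gene but Bax and Bbc3 the 4 points at 10 min lie above all others of that gene, while those of Bbc3 lie below the steady-state points of the same genotype. The share of all genes whose points lie so was not counted, so this describes the values and does not set these genes apart.

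At 10 min of recovery the genes were compared with steady state, which on this scale does not give the absolute amount of RNA. RPKM is relative to all other reads of a library, so each change is relative to the other genes. In WT cells 9 of the 10 genes were called higher than in steady state by limma with Benjamini-Hochberg adjustment over all genes tested, where 36% of 11214 genes were called higher and 30% lower. The median change of the 10 genes was 0.85 on the log2 scale and that of all genes tested 0.09. Among the null-labelled libraries the same count was 9 of 10, beside 36.5% of genes called higher and 30.4% lower, with medians of 0.91 and 0.08. It was 9 as well without the library whose labels disagree, beside 32.5% of genes higher and 25.9% lower. The log2 changes of the null-labelled libraries without it were 0.92 for Trp53, 1.77 for Mdm2, 1.29 for Ccng1, 0.47 for Cdkn1a, 0.82 for Btg2, 0.58 for Bax, 0.92 for Pmaip1, 1.62 for Phlda3 and 2.03 for Trp53inp1 (adjusted p between 0.00113 and 0.0255, limma), and -0.59 for Bbc3, which was not called (adjusted p = 0.0722).

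Trp53 itself had 9.37 and 9.42 RPKM in the WT libraries in steady state and 17.4 and 17.5 at 10 min. Across the null-labelled libraries it had 8.88 and 9.14 in steady state and 17.4 and 17.3 at 10 min. The recovery libraries were well above those of steady state in both genotypes and hardly differed from each other. The rise was 1.86-fold in WT (log2 change 0.89 ± 0.15, SE, adjusted p = 0.0011, limma) and 1.92-fold in the null-labelled libraries (0.94 ± 0.15, adjusted p = 0.000784, limma).

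The genes that act on p53 itself were next. Mdm2, the ubiquitin ligase that marks p53 for degradation, had 12.2 and 10.6 RPKM in WT in steady state and 34.3 and 38.2 at 10 min, a rise of 3.18-fold (log2 change 1.66 ± 0.29, adjusted p = 0.00111, limma). In the null-labelled libraries it went from 11 and 10.3 to 36.1 and 34.6 RPKM, a rise of 3.32-fold (1.72 ± 0.29, adjusted p = 0.000873, limma). All 4 recovery libraries of Mdm2 lay far above the 4 of steady state. Ccng1, cyclin G1, which brings a phosphatase to Mdm2, had 12.6 and 10 RPKM in WT in steady state and 21.3 and 16.8 at 10 min. Its rise of 1.68-fold in WT (adjusted p = 0.0128, limma) passed the test with all 4 libraries, but not without the second steady-state WT library (adjusted p = 0.0886) or without the first 10-min WT library (adjusted p = 0.0855). Among the null-labelled libraries Ccng1 rose 2.03-fold (adjusted p = 0.0024, limma), from 11.9 and 8.37 to 21.3 and 19.8 RPKM.

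The genes of cell-cycle arrest rose together. Cdkn1a, which encodes the cyclin-dependent kinase inhibitor p21, had 3.41 and 3.75 RPKM in WT in steady state and 6.52 and 6.53 at 10 min, 1.82-fold higher (log2 change 0.85 ± 0.11, adjusted p = 0.000209, limma). Across the null-labelled libraries it had 3.29 and 3.85 in steady state and 5.81 and 4.97 at 10 min, 1.51-fold higher (0.58 ± 0.11, adjusted p = 0.00159, limma). The 10-min libraries lay above steady state in both genotypes, and the null-labelled ones lay below the WT ones. Btg2, an antiproliferative factor, rose 1.82-fold in WT, from 5.40 and 5.33 to 10.6 and 8.92 RPKM (adjusted p = 0.000851, limma), and 1.75-fold in the null-labelled libraries, from 6.46 and 6.18 to 10.3 and 11.8 RPKM (adjusted p = 0.00117, limma).

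The death genes did not move as 1 group. Pmaip1 (Noxa), a BH3-only protein, rose 1.85-fold in WT, from 0.933 and 0.840 to 1.78 and 1.51 RPKM (adjusted p = 0.002, limma), and 1.96-fold in the null-labelled libraries, from 0.803 and 0.756 to 1.66 and 1.39 RPKM (adjusted p = 0.00127, limma). Bax, which permeabilises the mitochondrial membrane, rose 1.51-fold in WT, from 7.37 and 7.90 to 10.5 and 12.6 RPKM (adjusted p = 0.0056, limma). Its rise of 1.47-fold in the null-labelled libraries, from 9.81 and 9.27 to 15 and 13 RPKM, passed the test (adjusted p = 0.00793, limma) but not without the first 10-min null-labelled library (adjusted p = 0.0598). Bbc3 (Puma), the other BH3-only gene of the set, was the exception. It had 0.870 and 0.845 RPKM in WT in steady state and 0.689 and 0.749 at 10 min, a log2 change of -0.23 ± 0.19 (adjusted p = 0.322, limma). In the null-labelled libraries it had 1.08 and 1.28 in steady state and 0.857 and 0.775 at 10 min, a log2 change of -0.48 ± 0.19 (adjusted p = 0.053, limma). Its 10-min libraries lay below those of steady state in each genotype, with no overlap, though the share of all genes without overlap was not counted with all libraries. In the null-labelled libraries the fall was called under 5 of the alternatives: a pseudocount of 1 (adjusted p = 0.0186), centring (0.0257), robust variances (0.0498), a fit of the 4 libraries alone (0.025) and subtraction of the class median (0.00095). Bbc3 rests on 30 to 242 reads per library and Pmaip1 on 27 to 171, the smallest numbers among the 10 genes.

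Phlda3 and Trp53inp1 were among those that rose most. Phlda3, which restrains Akt signalling, had 11.8 and 9.20 RPKM in WT in steady state and 29.2 and 25.9 at 10 min, 2.62-fold higher (log2 change 1.39 ± 0.19, adjusted p = 0.000269, limma). Among the null-labelled libraries it went from 12 and 10.6 to 33.3 and 32 RPKM, 2.9-fold higher (1.53 ± 0.19, adjusted p = 0.000153, limma). Trp53inp1, a stress protein that promotes p53 activity and autophagy, went from 11.7 and 9.60 to 39.5 and 40.3 RPKM in WT, 3.75-fold higher (1.90 ± 0.31, adjusted p = 0.000779, limma). With 11.1 and 9.79 RPKM in steady state and 40.9 and 39.5 at 10 min, it was 3.86-fold higher in the null-labelled libraries (1.94 ± 0.31, adjusted p = 0.00067, limma). For both genes all recovery libraries lay well above steady state, and Trp53inp1 became the most highly transcribed of the 10.

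How a gene changed at 10 min went with its length, so the 10 genes were also set against genes of like span. In WT the median ratio to steady state was 1.12 for genes under 5 kb, 1.68 for 5 to 10 kb, 1.73 for 10 to 20 kb, 1.18 for 20 to 40 kb and 0.669 for genes over 40 kb. In the class of 5 to 10 kb, which holds Ccng1, Cdkn1a, Bax, Bbc3 and Pmaip1, 59% of genes were called higher, and in that of 10 to 20 kb, which holds Trp53 and Trp53inp1, 62.3% were. The rises of Trp53, Ccng1, Cdkn1a, Bax and Pmaip1 in WT lay 0.14, 0.05, 0.15, -0.11 and 0.12 from the median log2 change of their class, and with that median subtracted none of these 5 passed the test (adjusted p = 0.472, 0.862, 0.267, 0.504 and 0.553, limma). Mdm2 lay 1.44 above its class median, higher than 97.1% of genes of 20 to 40 kb, with 64 of 2238 genes of that class changing more. Trp53inp1 lay 1.15 above its class median and higher than 95.6% of the class, Phlda3 1.24 above and higher than 89.8% of genes under 5 kb, and Btg2 0.70 above and higher than 76.9%. These 4 genes passed the test after the class median was subtracted, in WT and in the null-labelled libraries, so that 4 of the 10 were called higher and 1 lower, beside 28.7% of all genes higher and 28.3% lower in WT and 29.5% in each direction in the null-labelled libraries. Btg2 (4.29 kb) lies near the class edge at 5 kb, and its WT change of 0.85 stood beside a median of 0.70 for 5 to 10 kb. Mdm2 (21.9 kb) lies near the edge at 20 kb, and its 1.66 stood beside 0.75 for 10 to 20 kb. Neither was tested against the adjoining class. Bbc3 lay at -0.93 from its class median in WT (adjusted p = 0.00371, limma) and at -1.21 in the null-labelled libraries (adjusted p = 0.00095, limma), with 20% and 14.1% of its class having a lower log2 change.

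**Figure D2:**
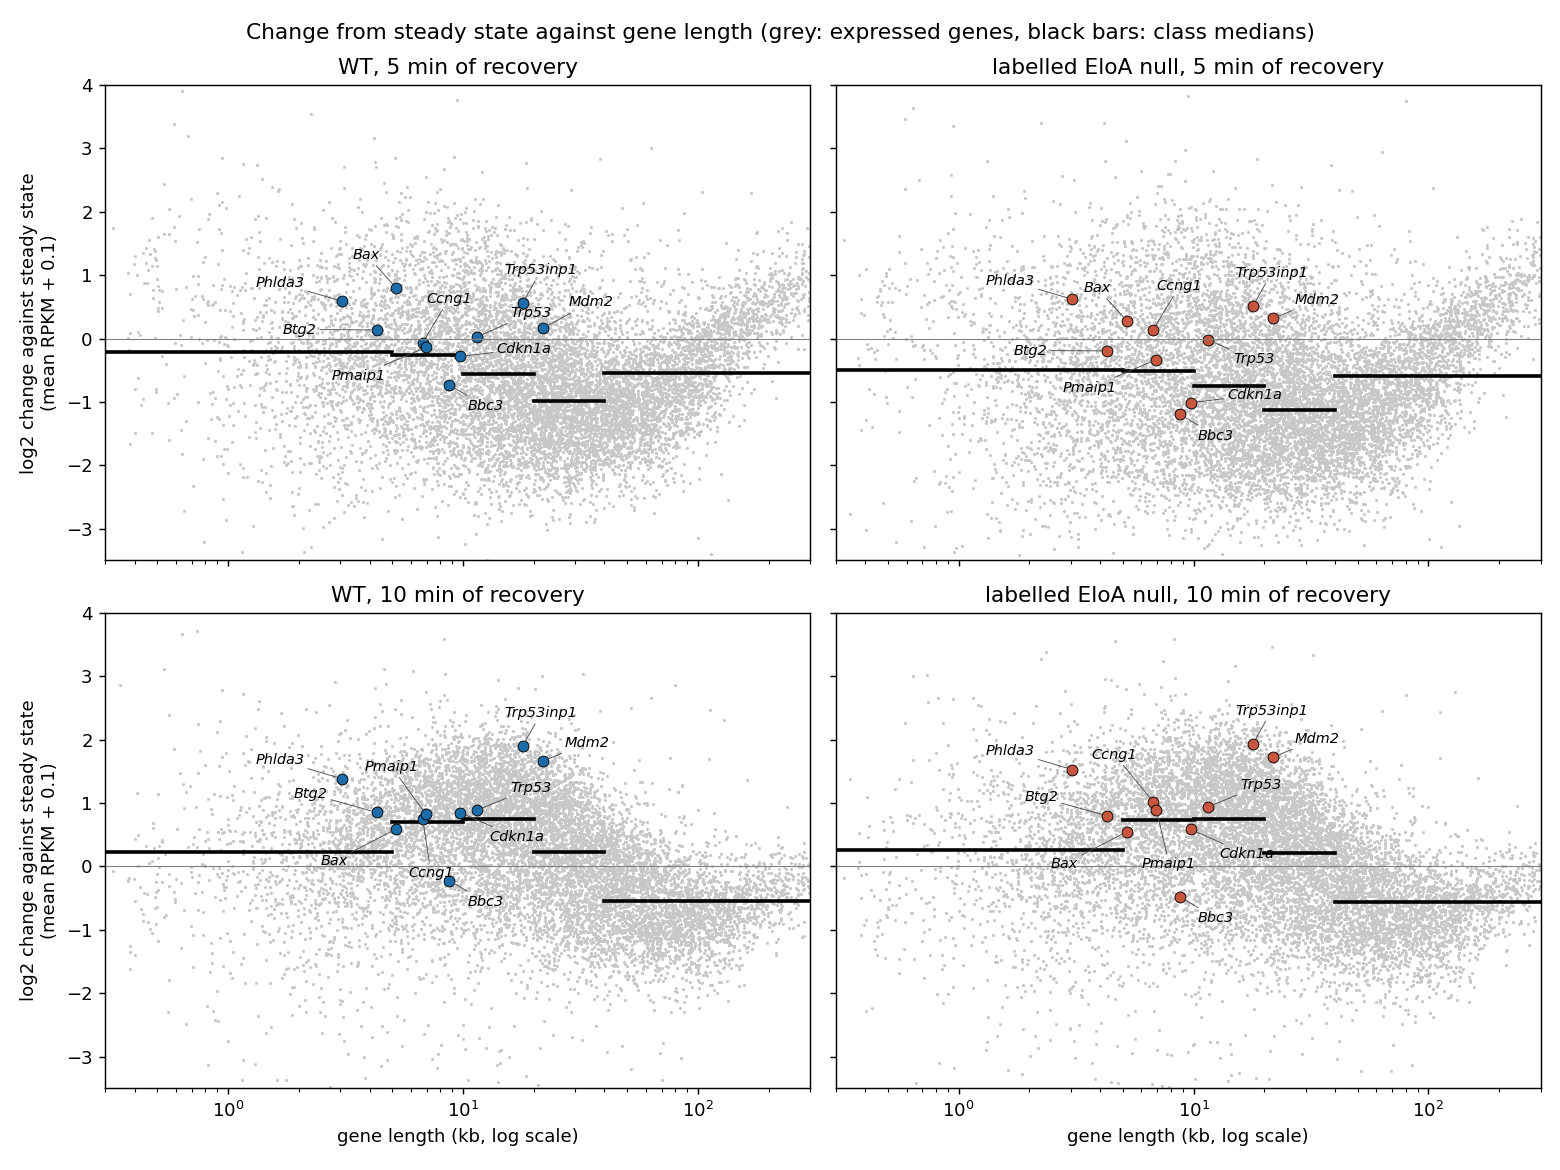
Log2 change against steady state (y axis, from mean RPKM + 0.1) against gene span (x axis, kb, log scale) for all expressed genes (grey), for the medians of 5 length classes (black bars) and for the 10 genes (coloured points), at 5 min (upper panels) and 10 min (lower panels) in WT (left) and in the null-labelled libraries (right). At 10 min Mdm2, Trp53inp1 and Phlda3 stand above the bar of their class and Bbc3 below it, while Trp53, Ccng1, Cdkn1a, Bax and Pmaip1 lie near it.

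At 5 min of recovery most genes had a lower RPKM than in steady state. The median log2 change over all genes tested was -0.59 in WT and -0.75 in the null-labelled libraries. That of the 10 genes was 0.07 in both. In WT 2 of the 10 genes were called higher and 2 lower, where 17.7% of 11164 genes were called higher and 54.5% lower. With each library centred on its median, 8 of the 10 were called, all higher, while 34.8% of genes were then called higher and 33.5% lower. Across the null-labelled libraries 1 gene was called higher and 2 lower, beside 16.6% of genes higher and 58.9% lower, 3 in all with or without the library whose labels disagree, and with centring 8 were called higher and 1 lower, beside 36.4% and 34.8%. With the median of the length class subtracted, 6 genes were called in WT, all higher, beside 33.5% of genes higher and 31.2% lower, and 7 higher and 2 lower in the null-labelled libraries, beside 35% and 32.8%. The directions at 5 min therefore depend on whether a gene is read against the library total, the median gene or genes of like length. The 5-min and 10-min comparisons share their steady-state libraries.

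Bax was the clearest riser at 5 min in WT. It had 13.8 and 12.8 RPKM, against 7.37 and 7.90 in steady state, a rise of 1.75-fold (log2 change 0.80 ± 0.14, adjusted p = 0.000901, limma). In the null-labelled libraries it had 10.3 and 12.8 RPKM against 9.81 and 9.27, a ratio of 1.21 that did not pass the test (adjusted p = 0.107, limma), but did without the first 5-min null-labelled library (adjusted p = 0.0296). Phlda3 rose 1.51-fold in WT, to 17.4 and 14.3 RPKM (adjusted p = 0.0193, limma), and 1.54-fold in the null-labelled libraries, to 14.6 and 20.1 RPKM (adjusted p = 0.0168, limma; 0.0333 without the library whose labels disagree). The call for Phlda3 in WT was lost without the second steady-state library (adjusted p = 0.133) or the first 5-min library (adjusted p = 0.11), and in the null-labelled libraries without the second of steady state (adjusted p = 0.0889) or the second at 5 min (adjusted p = 0.108).

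Cdkn1a and Bbc3 were the genes that fell at 5 min. Bbc3 had 0.568 and 0.384 RPKM in WT, 0.555 of its steady-state level (log2 change -0.75 ± 0.19, adjusted p = 0.00719, limma), and 0.371 and 0.546 RPKM in the null-labelled libraries, 0.389 of it (-1.21 ± 0.19, adjusted p = 0.000462, limma; -1.32 and adjusted p = 0.00224 without the library whose labels disagree). Centred on the median gene, the log2 change of Bbc3 was -0.16 in WT, where the call was lost (adjusted p = 0.42), and -0.46 in the null-labelled libraries (adjusted p = 0.0342). Cdkn1a had 2.90 and 2.95 RPKM in WT, 0.817 of its steady-state level (log2 change -0.28 ± 0.11, adjusted p = 0.0448, limma). That call was lost when any 1 of the 4 WT libraries was left out: the adjusted p was 0.0598 without the first and 0.203 without the second steady-state library, and 0.118 and 0.0966 without the first and the second at 5 min. With centring the direction turned, and Cdkn1a was above steady state in WT by 0.31 (adjusted p = 0.0431). Among the null-labelled libraries Cdkn1a had 1.70 and 1.74 RPKM at 5 min, 0.482 of its steady-state level (-1.01 ± 0.11, adjusted p = 5.06e-05, limma), and without the first steady-state library the log2 change was -1.12 (adjusted p = 0.00025). With centring that fall was -0.26 and was no longer called (adjusted p = 0.078), and against the median of its length class it was -0.49 (adjusted p = 0.00406). In WT Cdkn1a lay at -0.01 from that median (adjusted p = 0.944) and Bbc3 at -0.48 (adjusted p = 0.0545), neither called. Both 5-min null-labelled libraries lay far below the 2 of steady state and below both WT libraries.

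Mdm2 and Trp53inp1, the genes that stood highest at 10 min, had replicates that lay far apart at 5 min. Mdm2 had 10.2 and 15.4 RPKM in WT and 9.11 and 17.5 in the null-labelled libraries. Trp53inp1 had 13.6 and 17.9 RPKM in WT and 9.43 and 20.5 in the null-labelled libraries. In each genotype the second library was the higher for both genes, by 0.59 and 0.93 on the log2 scale for Mdm2 and by 0.39 and 1.11 for Trp53inp1, while the median gene of 20 to 40 kb differed by -0.20 and 0.06 and that of 10 to 20 kb by -0.23 and 0.07. Against the library total none of these rises over steady state was called with all libraries (adjusted p between 0.141 and 0.68, limma), and the SE of 0.29 to 0.31 was the largest among the 10 genes. Without the first 5-min null-labelled library, the log2 change from steady state was 0.71 for Mdm2 and 0.97 for Trp53inp1. Against the median of its length class Mdm2 was called with all libraries, at 1.14 in WT (adjusted p = 0.00823) and 1.38 in the null-labelled libraries (adjusted p = 0.00293). Trp53inp1 was as well, at 1.12 (adjusted p = 0.0126) and 1.17 (adjusted p = 0.00966).

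Of the other genes none was called at 5 min against the library total. Trp53 had 11.3 and 7.85 RPKM in WT and 9.46 and 8.30 in the null-labelled libraries, which overlapped steady state in both. Ccng1, with 12.3 and 9.35 and with 11.5 and 10.9 RPKM, overlapped it as well. Btg2 had 6.46 and 5.35 RPKM in WT, and with 4.99 and 6.03 in the null-labelled libraries it lay below steady state there without passing the test (adjusted p = 0.221, limma). Pmaip1 had 0.895 and 0.697 RPKM in WT and 0.526 and 0.672 in the null-labelled libraries, where it lay below steady state (adjusted p = 0.0823, limma), and passed the test without the second 5-min null-labelled library (adjusted p = 0.0426).

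From 5 to 10 min 9 of the 10 genes were called higher in WT, beside 63.8% of 10363 genes higher and 16.3% lower, and the median change of the 10 genes, 0.85 on the log2 scale, was close to the 0.82 of all genes. Across the null-labelled libraries 9 were called higher as well, beside 68.8% of 10550 genes, with medians of 0.98 and 0.99. The largest rises in WT were those of Mdm2 (2.83-fold), Trp53inp1 (2.54-fold), Cdkn1a (2.23-fold) and Pmaip1 (2.06-fold). In the null-labelled libraries Cdkn1a led with 3.13-fold (log2 change 1.59 ± 0.11, adjusted p = 8.24e-06, limma). Bax was the 1 gene not called in either genotype, at 0.866 of its 5-min level in WT (adjusted p = 0.189, limma) and 1.21 in the null-labelled libraries (adjusted p = 0.0948, limma). Against the median of its length class the change of Bax was -1.12 in WT (adjusted p = 0.000284, limma) and -0.88 in the null-labelled libraries (adjusted p = 0.000912, limma). Some of these calls rested on 1 library. In WT that of Bbc3 was lost without the second 5-min library (adjusted p = 0.207) or the first or the second 10-min library (adjusted p = 0.0691 and 0.119), and that of Ccng1 without the first 10-min library (adjusted p = 0.0508). Among the null-labelled libraries, leaving out the first at 5 min lost Bbc3 (adjusted p = 0.0519), and leaving out the second at 5 min added Bax (adjusted p = 0.0248). With each library centred on its median, 3 genes were called higher and 1 lower in WT and 2 higher and 1 lower in the null-labelled libraries, beside 40.1% and 26% and beside 39.8% and 26.2% of all genes. With the median of the length class subtracted, only Bax was called in WT, as lower, beside 24% of genes higher and 26.4% lower. In the null-labelled libraries 1 gene was then called higher and 2 lower, beside 24.3% and 28.3%.

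The loss of EloA was then compared with WT within each condition, on the 4 libraries of that condition. None of the 10 genes was called, and limma called 0 of 11347, 0 of 8985 and 0 of 10241 genes in steady state, at 5 min and at 10 min, where 18.4%, 9.42% and 20.5% had an unadjusted p under 0.05. A fit of all 12 libraries called 136, 558 and 360 genes. Bbc3 was not tested at 5 min, since it was below 0.5 RPKM in both genotypes there.

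At 5 min Cdkn1a had 2.90 and 2.95 RPKM in WT and 1.70 and 1.74 in the null-labelled libraries, a ratio of 0.588 (log2 difference -0.73 ± 0.14, unadjusted p = 0.00319, adjusted p = 0.262, limma). Replicates of each genotype were close together and the genotypes far apart, and only 1.54% of genes of 5 to 10 kb had a lower ratio. In the fit of all 12 libraries, which takes the spread from all conditions, 2.99% of genes were called higher at 5 min and 3.22% lower. There the same difference of Cdkn1a passed the test (adjusted p = 0.0115, limma), and Cdkn1a was the 1 gene of the 9 tested to do so. The adjusted p lay between 0.0115 and 0.765 over the alternatives, and leaving out 1 library gave a log2 difference between -0.75 and -0.72. In steady state, by contrast, the Cdkn1a libraries overlapped (ratio 0.997, adjusted p = 0.983), and at 10 min the ratio was 0.826 with no overlap (log2 difference -0.28 ± 0.11, adjusted p = 0.272, limma). The change from steady state to 5 min differed between genotypes by -0.73 on the log2 scale (null-labelled minus WT), with SE 0.15, unadjusted p = 0.00138 and adjusted p = 0.287 (-0.84 and adjusted p = 0.285 without the library whose labels disagree), and so was not called, where 0.103% of 11704 genes were. For the change to 10 min the difference was -0.27 ± 0.15 (adjusted p = 1, limma), or -0.38 without that library (adjusted p = 1), beside 0.0085% of 11763 genes called. None of the 10 genes passed either test of the difference between genotypes.

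**Figure D3:**
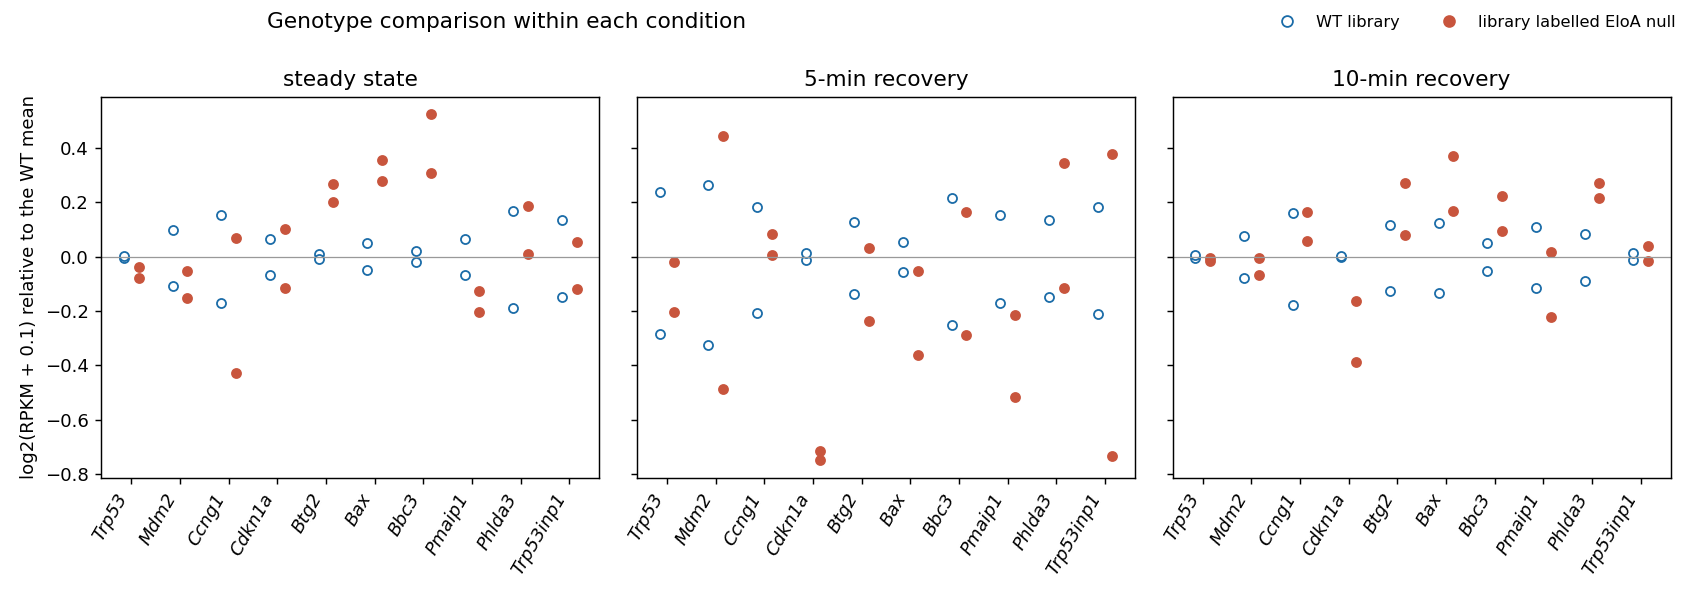
Log2(RPKM + 0.1) of each library relative to the WT mean of its condition (y axis) for the 10 genes (x axis) in steady state and at 5 and 10 min of recovery; open blue points are WT libraries and filled red points null-labelled libraries, 2 each. At 5 min both red points of Cdkn1a lie near -0.73, apart from the WT points, while those of Mdm2 and Trp53inp1 spread to both sides of them.

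The other differences between genotypes were smaller. In steady state 3 genes were higher with no overlap in the null-labelled libraries and 2 lower, beside 32% and 21.4% of all genes tested. Bax had a ratio of 1.25 (log2 difference 0.32 ± 0.10, adjusted p = 0.206, limma), Btg2 of 1.18 (0.23 ± 0.08, adjusted p = 0.262) and Bbc3 of 1.38 (0.41 ± 0.11, adjusted p = 0.185). Without the library whose labels disagree these were 0.28, 0.20 and 0.52 on the log2 scale (adjusted p = 0.313, 0.35 and 0.257). Trp53 was lower by a ratio of 0.959 and Pmaip1 by 0.879, neither called, with log2 differences of -0.04 and -0.20 without that library. The count without it was 4 higher and 4 lower, beside 43.8% and 36.4% of all genes. At 5 min Cdkn1a and Pmaip1 (ratio 0.753, adjusted p = 0.707) were lower with no overlap and none was higher, beside 25% and 15.4% of all genes. At 10 min Phlda3 (ratio 1.19, adjusted p = 0.256), Bax (1.21, adjusted p = 0.323) and Bbc3 (1.13, adjusted p = 0.542) were higher with no overlap, and Cdkn1a and Trp53 (ratio 0.992) lower, beside 33.5% and 21.8% of all genes. The median gene under 5 kb had a log2 difference of 0.19 in steady state and 0.27 at 10 min, and that of 5 to 10 kb 0.15 and 0.23, while that of over 40 kb had -0.05 and -0.07. Against the median of its class the log2 difference of Cdkn1a was -0.74 at 5 min and -0.50 at 10 min.

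Other genes of the pathway were counted from a list of 16 regulators of p53, of which 13 could be tested, and a list of 40 other known p53 targets, of which 35 could be. At 10 min in WT 20 of the 35 targets were called higher and 4 lower, with a median log2 change of 0.64 beside 0.09 for all genes, and 4 of 13 regulators were higher and 3 lower, with a median of -0.04, where 36% of all genes were called higher and 30% lower. Among the null-labelled libraries 21 targets were higher and 4 lower (median 0.67 beside 0.08), and 3 regulators were higher and 3 lower (median -0.01), beside 36.5% and 30.4% of all genes. These 4 counts were unchanged without the library whose labels disagree, beside 32.5% and 25.9% of all genes. The lists were not counted against genes of like length. In WT 59% of all genes of 5 to 10 kb and 62.3% of those of 10 to 20 kb were called higher, so the counts show no excess over genes of those lengths. Among targets, the small GTPase gene Rap2b rose from 1.62 to 5.25 RPKM in WT, the glutaminase gene Gls2 from 1.15 to 3.51, the stress gene Gadd45a from 1.07 to 2.63, Zmat3, which encodes an RNA-binding zinc finger protein, from 3.83 to 9.06, and Rps27l from 4.27 to 9.85 (mean RPKM, adjusted p between 2.48e-05 and 0.00854, limma). Those that fell were Sesn1 (1.59 to 0.461 RPKM), Ephx1 (1.52 to 0.656), Apaf1 (2.43 to 1.24) and Ptpn14 (3.29 to 1.81). Sesn1, Apaf1 and Ptpn14 span 97.9, 93.4 and 148 kb, in the length class whose median ratio was 0.669, and Ephx1, of 28 kb, lay at -1.36 from the median log2 change of its class. Among regulators, Rchy1, which encodes a ubiquitin ligase for p53, rose from 4.15 to 13.1 RPKM, the kinase gene Chek2 from 2.37 to 4.91, the deacetylase gene Sirt1 from 7.41 to 11.4 and the phosphatase gene Ppm1d from 2.46 to 3.15. The regulators called lower were the long genes Hipk2, Atr and Trp53bp1, of 178, 94 and 76.6 kb.

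**Figure D4:**
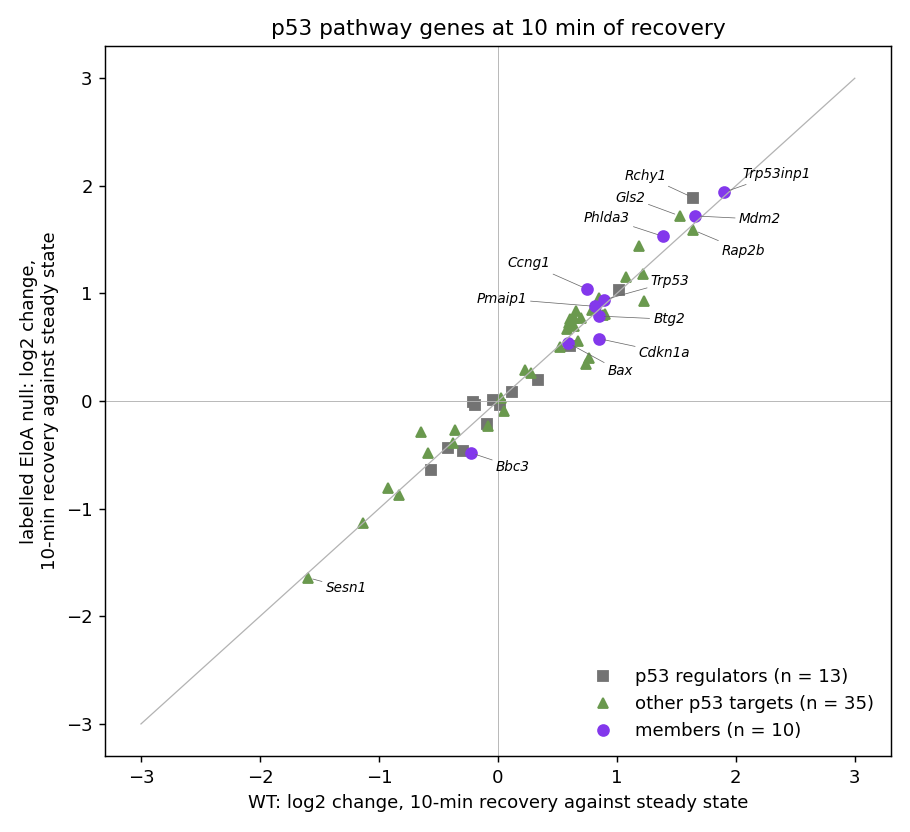
Log2 change from steady state to 10 min of recovery in WT (x axis) and in the null-labelled libraries (y axis) for the 10 genes (circles), 35 other p53 targets (triangles) and 13 p53 regulators (squares), with the line of equal change. Points lie close to the line, from Sesn1 at the lower left (-1.60 and -1.64) to Trp53inp1 at the upper right (1.90 and 1.94), and Cdkn1a lies below it (0.85 and 0.58).

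At 5 min the lists went down with most genes. In WT 6 of 35 targets were called higher and 16 lower (median log2 change -0.36 beside -0.59 for all genes), and 3 of 13 regulators were higher and 8 lower (median -0.44), where 17.7% of all genes were called higher and 54.5% lower. Across the null-labelled libraries 4 targets were higher and 20 lower (median -0.52 beside -0.75), and 3 regulators were higher and 6 lower (median -0.15), beside 16.6% and 58.9% of all genes. Without the library whose labels disagree these were 4 and 14 targets and 3 and 5 regulators, beside 15.1% and 54%. Gadd45a was the target that rose most in WT, from 1.07 to 3.76 RPKM (log2 change 1.70 ± 0.22, adjusted p = 0.000173, limma), followed by the long noncoding RNA Pvt1 (5.42 to 13.5), Rps27l (4.27 to 9.2), Rap2b (1.62 to 3.11) and Plk2 (6.69 to 9.98). Gadd45a stood at 2.63 RPKM at 10 min in WT, and its change from 5 min was not called (log2 change -0.47 ± 0.22, adjusted p = 0.0815, limma). Ephx1 (1.52 to 0.209 RPKM), Sco2 (2.07 to 0.46), Eda2r (4.51 to 1.23), Bid (3.33 to 1.36) and Pidd1 (4.05 to 1.7) fell most. Between genotypes no gene of either list was called. In steady state 13 of 35 targets were higher with no overlap in the null-labelled libraries and 2 lower, and 2 of 13 regulators were higher and 6 lower, beside 32% and 21.4% of all genes. Without the library whose labels disagree, which leaves 1 library in that group and so less room for overlap, these were 19 and 10 targets and 2 and 9 regulators, beside 43.8% and 36.4%. At 10 min 16 of 33 targets were higher and 2 lower, and 3 of 13 regulators were higher and 7 lower, beside 33.5% and 21.8%. No difference between the lists was tested.

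The genes whose log2(RPKM + 0.1) was most like that of Trp53 over the 12 libraries, among 5073 genes above 1 RPKM in every group, were Trappc6b (Pearson's r = 0.988), Gspt1 (0.987) and Dctn5 (0.986). For Cdkn1a they were Mettl16 (0.971), Denr (0.969) and Amd1 (0.968). The 12 libraries fall into 3 conditions and share depth and scaling within each, so these values are a description and carry no test.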

How the data were processed

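The 12 Bru-seq libraries were used; the 16 chromatin samples of the series were not analysed here. The authors aligned paired-end reads to mm10 and dm3 with Bowtie2 2.3.4.3, kept uniquely aligned reads and separated strands with SAMtools, counted reads in RefSeq genes with featureCounts 1.6.1, and deposited RPKM values made with edgeR, in 1 table per condition without pooling. Versions are from the submitters' processing notes. Whether strand was used in the counting is not given in the sources used here. The paper describes spike-in RNAs of Drosophila genes, made with BrU and added to each sample. These spike-in RNAs were not used here. The labels name the cells as CCE28, and a treatment text also names CJ7.

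The deposited RPKM came out as whole reads (within 0.05, for genes up to 500 reads) for 96.9% to 97.5% of expressed genes with introns when the summed intron length was used, and for 9.86% to 11.5% with the gene span, so the values count intronic reads, while the methods speak of whole genes. Genes with 1 short intron, such as Btg2 with 72 to 407 reads, rest on few bases. Reads in matched genes made 98.7% to 99.2% of each library size in all 12 libraries, so each library was scaled by its own reads and tables were compared. Read numbers were worked out from the RPKM, describe depth and were not tested. Genes were matched to RefSeq GRCm38.p6 by symbol (24418) or older symbol (407).

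log2(RPKM + 0.1) was tested with limma 3.58.1 (R 4.3.3, intensity trend, Benjamini-Hochberg, adjusted p under 0.05) over genes with mean RPKM above 0.5 in a group compared. A fold change on this scale understates the change of low genes, and ratios are of mean RPKM. Genotypes were compared within each condition, conditions and their difference between genotypes in 1 fit of all 12 libraries. Duplicates are described as independent experiments. The fits were tested on simulated data. Named were the 10 genes, Eloa, up to 5 called genes per list and direction, and the 3 genes most like Trp53 and Cdkn1a. Results under alternatives are kept one by one for the 10 genes, apart for those whose libraries do not overlap between the groups, a split made after their values were seen. For genes whose libraries overlap they are given in large part by counts. The genes and lists were chosen with earlier results of these data known. Same-numbered replicates deviated together weakly over genes (correlation -0.00725 to 0.113), so the numbers were not taken to pair libraries. Alternatives were other pseudocounts and filters, robust variances, centring of libraries, subtraction of length-class medians, a replicate block, other sets of libraries in the fit and leaving out each library.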

Additional observations from a re-analysis of the deposited data

How the results depend on the processing

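For the 10 genes, 903 log2 changes were recomputed under alternatives where the libraries of the groups did not overlap: 812 kept direction and side of the threshold, 53 lost the call, 16 gained it and 22 turned. Where libraries overlapped, of 515 values 437 kept both, 13 gained the call and 65 turned, 56 of these on leaving out a library. The replicate block changed no call of the 10 genes (0 called between genotypes, 4 in WT and 3 in the null-labelled libraries at 5 min, 9 at 10 min and 9 between the recovery times in each). A fit of all 12 libraries called 1 gene, Cdkn1a, between genotypes at 5 min, as lower, beside 2.99% of all genes higher and 3.22% lower. With only the 4 libraries of a comparison in the fit, the 5-min calls of Cdkn1a in WT (adjusted p = 0.0748, limma) and Phlda3 in the null-labelled libraries (0.0625) were lost, as was Bbc3 between 5 and 10 min in WT (0.0951, and 0.0701 with no filter on low values).

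Centring each library on its median raised the genes called at 5 min to 8 in WT and 9 in the null-labelled libraries, and lowered those called between 5 and 10 min to 4 and 3. Among genes whose libraries did not overlap it turned Cdkn1a in WT (0.31) and Btg2 (0.55) and Pmaip1 (0.41) in the null-labelled libraries at 5 min, and between 5 and 10 min Bbc3 in WT (-0.07) and Bax (-0.49) and Bbc3 (-0.04) in the null-labelled libraries. Among those whose libraries overlapped it turned, and called, Ccng1 (0.53) and Pmaip1 (0.45) in WT and Trp53 (0.72) in the null-labelled libraries at 5 min. Subtracting the median of the length class left 5 genes called in each genotype at 10 min, gave 6 in WT, all higher, and 9 in the null-labelled libraries at 5 min, and left 1 in WT and 3 in the null-labelled libraries between 5 and 10 min. It turned Bax at 10 min in WT (-0.11), and Cdkn1a (-0.15) and Bax (-0.18) in the null-labelled libraries, and at 5 min there Btg2 (0.40), Pmaip1 (0.18) and, with a call, Trp53 (0.73). Between 5 and 10 min it turned Trp53 (-0.39), Ccng1 (-0.10) and Bbc3 (-0.38) in WT, and Trp53 (-0.46), Ccng1 (-0.28), Bax (-0.88) and Bbc3 (-0.43) in the null-labelled libraries. Both scalings change the reference a gene is read against; no other cause was tested.

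Leaving out 1 library gave 2 to 3 genes called at 5 min in WT, in place of 4, and 2 to 6 in the null-labelled libraries, in place of 3, with 6 without the first 5-min library. Otherwise it gave 8 to 9 at 10 min in each genotype, and between 5 and 10 min 7 to 9 in WT and 8 to 10 in the null-labelled libraries. The difference between genotypes in the 10-min change, called for no gene, ran from -0.17 to 0.09 for Bax and from -0.04 to 0.32 for Phlda3. With 1 library left out, the genes called at 10 min and between 5 and 10 min were all higher. Those called at 5 min were in part or all lower. All genes leaned the same way in each such fit, with more called lower than higher at 5 min and the reverse otherwise. Such a fit leaves 1 library in a group. The counts therefore show how calls depend on a library and do not set the 10 genes apart. Bbc3 and Pmaip1 rest on the fewest reads, and the 5-min libraries have the smallest totals.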
